A study of Mus musculus with 10 samples.

Results

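Endothelial cells line the blood vessels, and 42 genes that mark them or build the junctions between them were followed here through Ly6G+ cells of the infarcted mouse heart and of the blood. The genes were listed by name with earlier results of these data known, and Esam, Jam2, Aqp1, Podxl and Mcf2l among them had been named by the study from these libraries, so that the set is not independent of them. All 42 were found among the 28185 genes of the expression table, and 39 of them reached a mean of 10 normalized counts over the 10 libraries and were tested. Cldn5, Sele and Tcf15 stayed under that level and are described by their counts. The mice were C57Bl/6J males of 12 to 16 weeks, and the left coronary artery (LCA) was ligated in the mice of all 4 groups, so that no group came from an uninjured heart. MI holds 3 libraries of cells from the left ventricle below the ligature, taken on day 3 after ligation. MI + MSC holds 3 libraries from mice that also received syngeneic bone marrow mesenchymal stromal cells (MSC), injected under the skin at 3 sites. Blood and Blood + MSC hold 2 libraries each of blood cells from the same kinds of mice. The cells had been bound to anti-Ly6G beads and passed over a magnetic column, the cardiac ones after enzyme digestion of the tissue. Libraries are named by their group and sequencing number, and the labels do not say which of them share a mouse.

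Endothelial cells hold each other through adherens junctions, built around VE-cadherin (Cdh5), and tight junctions, built from claudins and JAM proteins. They keep their identity through transcription factors of the ETS and SOX families. In the heart, capillary endothelium outnumbers most other cell types and passes fatty acids from the blood to the muscle. Neutrophils, the cells that carry Ly6G, cross this layer when they enter an infarct. Several of the 42 genes are also used outside the endothelium: platelets make von Willebrand factor (Vwf), Pecam1 and Esam, red cells carry Aqp1, macrophages and platelets carry Cd36, and fat cells make Fabp4, Cd36 and Cav1. In all, 10 of the 42 (Pecam1, Icam2, Cd36, Vwf, Esam, Aqp1, Fabp4, Vcam1, Eng and Cav1) are known from blood cells or fat as well, and the other 32 are given apart from them below. That division comes from background and not from these data: Jam2, among the 32, had 538 reads over the 4 blood libraries, against 547 for Vwf and 72 for Esam.

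The libraries differed widely in depth. Reads on genes ran from 148594 in MI 13 to 8602711 in Blood + MSC 24, a range of 57.9-fold, and Blood 21 was the second shallowest with 268860. A normalized count is a read count divided by the size factor of its library, so that a single read weighed 8.40 normalized counts in MI 13, 7.07 in Blood 21 and between 0.168 and 2.30 elsewhere. The defining marker of the selection, Ly6g, was at 4.75 to 26.9 normalized counts in the 6 cardiac libraries and at 41.2 to 644.5 in the 4 blood libraries. A list of 14 neutrophil genes took 2443 to 11312 RPM (reads per 1000000 reads on genes of the library) in the cardiac libraries and 14394 to 31837 in the blood libraries. All 12 genes of a striated muscle list had reads in every cardiac library, where they took 2213 to 19516 RPM.

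The 42 endothelial genes were read in every cardiac library, none of them at 0. They took 6434, 5827 and 6287 RPM in MI 13, MI 19 and MI 20, and 1500, 2002 and 2814 in MI + MSC 15, MI + MSC 17 and MI + MSC 18. Every MI library lay above every MI + MSC library, and the means of 6183 ± 316 (SD, n = 3) and 2105 ± 663 (SD, n = 3) differed by 2.94-fold. The 95% exact binomial intervals, which cover counting error only, ran from 5703 to 5953 in MI 19 and from 2741 to 2889 in MI + MSC 18, the closest pair between the groups. For the 32 genes outside the blood and fat group alone the means were 3539 ± 240 and 1045 ± 394 RPM, a 3.39-fold difference. In these bulk samples fewer endothelial cells, less RNA per cell and less endothelial RNA carried over with the selected cells cannot be told apart.

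**Figure D1:**
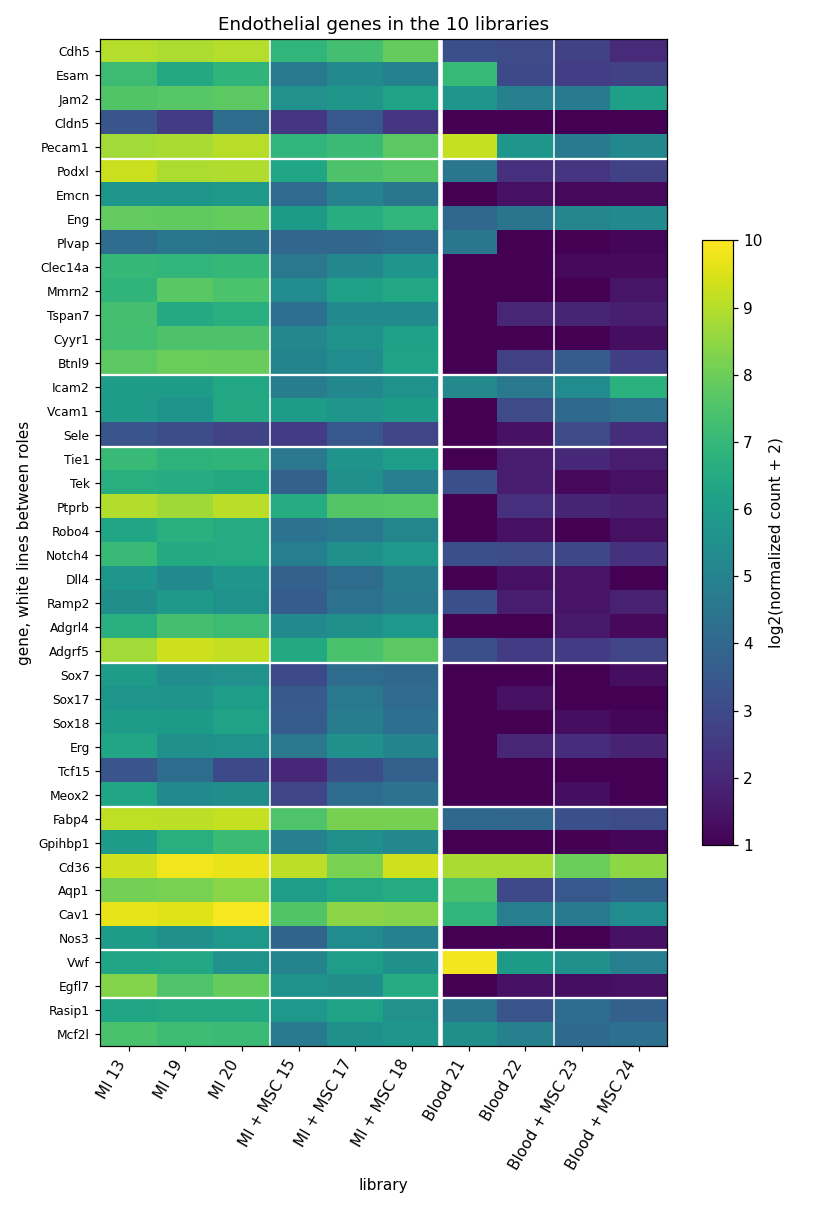
Level of each of the 42 endothelial genes (rows, grouped by role between white lines) in the 10 libraries (columns), as log2(normalized count + 2). The 3 MI columns are the brightest for most genes, the 3 MI + MSC columns are darker, and most genes are near 0 counts in blood, where Blood 21 stands out for Vwf, Pecam1, Esam and Aqp1.

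Levels can be compared between genes only per length, here as RPKM (reads per kilobase of annotated exon and per 1000000 reads). On that scale Cav1, which builds caveolae, had the highest mean in MI with 127, followed by Fabp4, a fatty acid carrier, with 86.8, Cdh5 with 86, Aqp1 with 75.9 and Podxl with 72.4. Fabp4 and Cdh5 were closer to each other than their spread over the MI libraries. In MI + MSC the order changed behind Cav1 (39.5) and Fabp4 (34.7), where Cd36 with 27.6 and Cdh5 with 27.1 lay side by side and Podxl (19.2) and Aqp1 (18.4) followed. Sele, the cytokine-induced E-selectin, was the lowest in both groups with 1.34 and 1.11, below Vwf with 3.06 and 1.89. In the blood libraries Cd36 was at 11.9 to 19.4 and led in all but Blood 21. Pecam1, Aqp1, Vwf and Esam reached 22 to 30.9 in Blood 21 alone and were at 0.829 to 2.77 in the other 3 libraries, where Icam2 (1.55 to 9.74) and Cav1 (2.78 to 5.47) were read at similar or higher levels. All of these are genes that blood cells or fat also use, and Jam2, which is not in that group, was at 1.31 to 4.14 in the same 3 libraries.

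The comparison of MI + MSC with MI asks how cardiac Ly6G+ cells differ after MSC delivery. All 39 tested endothelial genes had a log2 fold change below 0, with a median of -1.60 and a range from -2.31 (Btnl9) to -0.13 (Vcam1), while the median of the 11549 genes tested was -0.01. Some of the 39 passed the minimum mean largely through MI, where they were highest. Sox7 and Meox2 averaged 48.0 and 51.6 normalized counts there, against 12.1 and 13.7 after MSC. No blood library held more than 0.525 of either. The 39 were read in the same 6 cardiac libraries, so that counts among them are a description and not 39 separate observations. For 36 of the 39, every MI + MSC library lay below every MI library, which held for 9.6% of all genes tested. In limma's test on log2(normalized count + 2), 32 of the 39 were lower at an unadjusted p under 0.05, against 4.74% of all genes, and none was higher (3.26% of all genes). None passed after Benjamini-Hochberg adjustment over all genes, where the lowest adjusted p in limma was 0.340 for any gene and 0% of genes were called. edgeR's quasi-likelihood test on the recovered reads also called none (0% of genes) and had 32 lower at an unadjusted p under 0.05 (5.78% of genes). DESeq2 over all libraries called 17 lower (0.502% of genes), and a gene is said to have fallen in the heart only where this test called it. DESeq2 on the 6 cardiac libraries alone called 25 lower (0.823% of genes), limma-voom with quality weights 29 (1.92%) and limma with array quality weights 33 (6.72%). The count at an unadjusted p under 0.05 was 25 without MI 20 (5.75% of all genes) or without MI + MSC 15 (1.78%), and 27 to 30 without any other cardiac library (2.94% to 4.84%). The count with groups apart was then 36 or 37, where 11.5% to 17% of all genes were apart.

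**Figure D2:**
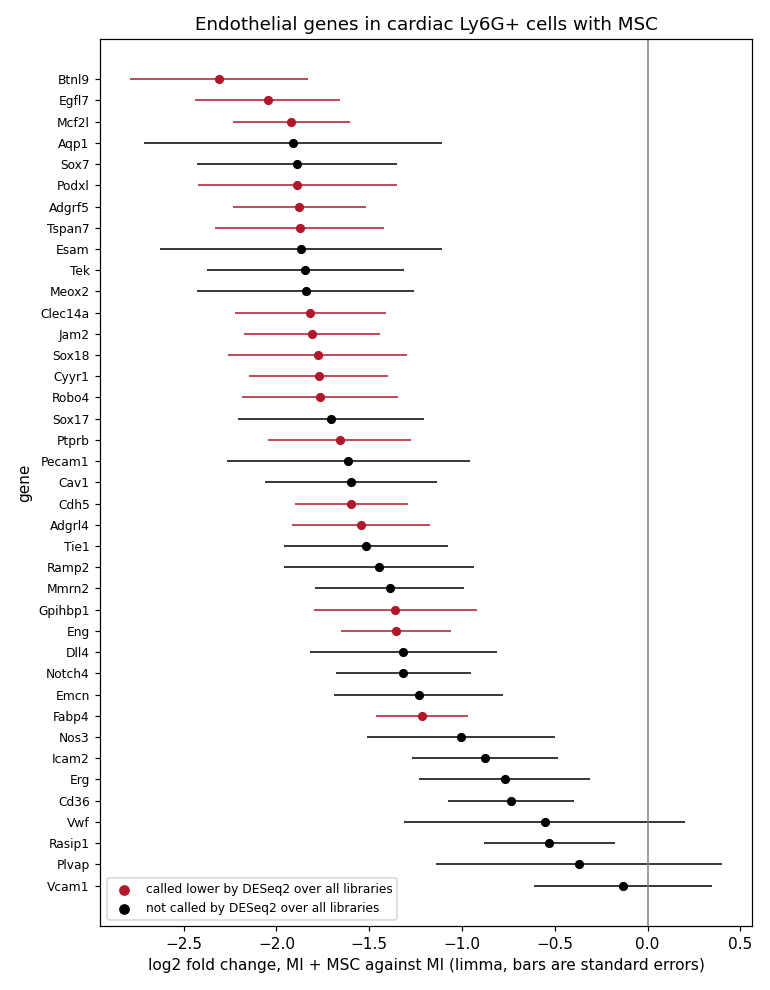
Log2 fold change of MI + MSC against MI for the 39 tested endothelial genes, from limma on log2(normalized count + 2), with standard errors as bars. All 39 points lie left of 0, from -2.31 for Btnl9 to -0.13 for Vcam1, and the 17 genes called by DESeq2 over all libraries are in red.

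Genes of other cells moved between the same libraries, and their part in the result was not tested. The mural list (pericytes and smooth muscle, 10 genes, 9 tested) took 775 to 1050 RPM in MI and 199 to 551 in MI + MSC, without overlap, and all 9 tested genes were below 0, of which Rgs5, Kcnj8 and Abcc9 were lower at an unadjusted p under 0.05. The striated muscle list (12 genes) took 6252 to 19516 in MI and 2213 to 9896 in MI + MSC, with overlap, since MI + MSC 18 lay above MI 20. All 12 muscle genes were below 0, with a median log2 fold change of -1.36, and 10 of the 12 were lower at an unadjusted p under 0.05, but none had groups apart. The ratio of MI to MI + MSC was thus 2.86 for striated muscle and 2.43 for mural genes, beside 2.94 for the 42 endothelial genes. Without MI + MSC 18 the muscle ratio was 5.28 and the endothelial ratio 3.53. For 32 further pan-endothelial genes, described below, the ratio was 1.36. Their sums overlapped (3621 to 5004 RPM in MI and 2452 to 4021 in MI + MSC). A large part of the sum in MI + MSC was Cd93, a gene that monocytes and neutrophils also carry. Cd93 held 2619, 1332 and 2689 of 4843, 3749 and 5397 normalized counts in MI + MSC 15, 17 and 18. In MI 13, 19 and 20 it held 647, 1882 and 1945 of 4522, 6269 and 6834. The ratio and the overlap thus depend on Cd93, whereas 24 of the 27 tested genes were below 0. The ratio was 1.14 for fibroblast genes, 0.71 for neutrophil genes, 0.60 for macrophage genes and 0.52 for platelet genes. The fibroblast, neutrophil and macrophage sums overlapped between the groups, and without MI + MSC 17 the neutrophil ratio was 1.02 and the fibroblast ratio 0.996. The platelet sums were mostly Pf4 and Ppbp, with means of 408 and 104 normalized counts in MI and 968 and 281 in MI + MSC, whereas 8 of the 11 platelet genes were below 0, with a median log2 fold change of -0.60. No gene of the muscle, mural or fibroblast lists was at 0 reads in a cardiac library. Erythroid genes took 87 to 249 RPM in MI and 35 to 93 in MI + MSC, and fat cell genes 25 to 63 and 10 to 46, both with overlap.

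**Figure D3:**
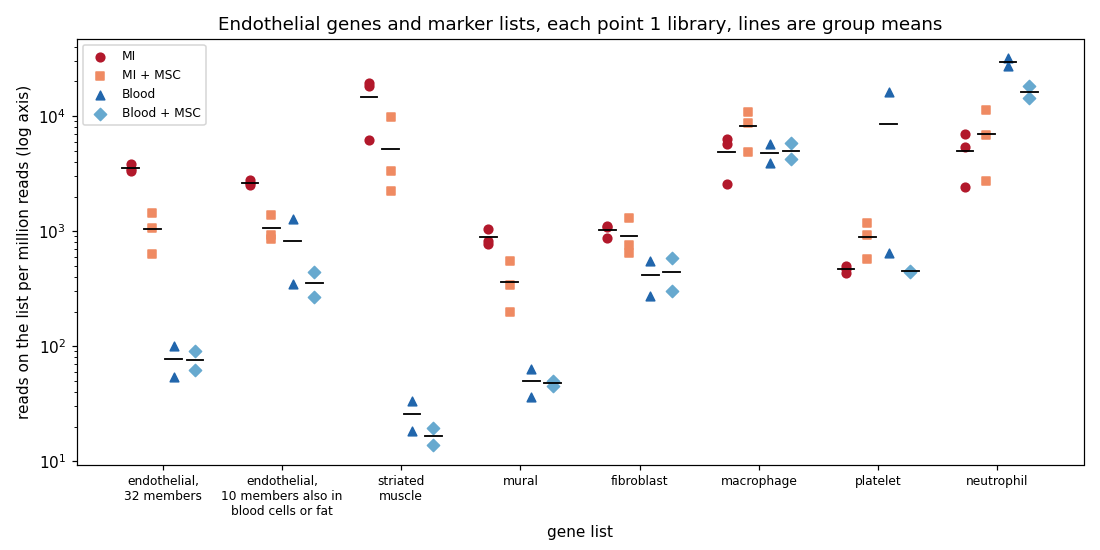
RPM on each gene list (log axis) in each library (points, by group), with lines at the group means. The 32 genes outside the blood and fat group form separate bands for MI (3321 to 3796), MI + MSC (637 to 1423) and blood (54 to 100), whereas the 10 genes shared with blood cells or fat stay at 269 or more in blood.

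Among the junction genes, all 4 that were tested were lower at an unadjusted p under 0.05 and had groups apart. Cdh5, VE-cadherin, had 513, 478 and 510.1 normalized counts in MI 13, MI 19 and MI 20 and 119.6, 158 and 233 in MI + MSC 15, MI + MSC 17 and MI + MSC 18. All MI libraries were close for Cdh5, although MI 13 rests on 61 reads, and the highest MI + MSC library reached less than the lowest MI library. Its log2 fold change was -1.60 (SE 0.30), with an adjusted p of 0.340 in limma and 0.0027 in DESeq2. Jam2, a tight junction adhesion molecule, had 185, 201 and 212 in MI against 44.6, 52.8 and 71.9 in MI + MSC, a log2 fold change of -1.81 (SE 0.37) with a DESeq2 adjusted p of 0.00732. Its groups were apart by more than the spread of either.

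Esam, an adhesion molecule of endothelial tight junctions and platelets, had 143, 83.6 and 116 normalized counts in MI against 23, 36.7 and 29.2 in MI + MSC. Pecam1, which sits at endothelial cell borders and on leukocytes and platelets, had 429, 462 and 521 in MI against 120.3, 140.0 and 208 in MI + MSC. The groups were apart for both genes, by 3.86-fold and 3.01-fold in their means. Their log2 fold changes were -1.87 (SE 0.76) and -1.61 (SE 0.65). Both genes were uneven between the blood libraries, with which the fit shares its spread. Neither passed in DESeq2 over all libraries (adjusted p = 0.222 and 0.248), and both passed in DESeq2 on the 6 cardiac libraries alone (adjusted p = 0.0018 and 9.8e-04). Cldn5, the main claudin of endothelial tight junctions, had only 50 reads over the 6 cardiac libraries. It was at 8.40, 3.84 and 16 normalized counts in MI against 3.38, 9.18 and 3.39 in MI + MSC, where 1 read in MI 13 alone is worth 8.40, and a difference was not detectable at this depth.

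The surface glycoproteins held the most DESeq2 calls, 6 of 9, and all 9 had groups apart. Podxl, a sialomucin of the apical membrane, had 622, 476 and 483 normalized counts in MI against 75.7, 179 and 201 in MI + MSC, a log2 fold change of -1.89 (SE 0.54) with a DESeq2 adjusted p of 0.038. The study also measured Podxl by RT-qPCR in cardiac Ly6G+ cells of an expanded cohort and reported no significant change. Btnl9, a butyrophilin-like protein of capillary endothelium, had 210.1, 245 and 241 in MI against 31.8, 39 and 73.2 in MI + MSC. This was the steepest fall of the 39, 4.83-fold between the means, with a log2 fold change of -2.31 (SE 0.48) and a DESeq2 adjusted p of 5.1e-04. Eng, endoglin, a co-receptor for TGF-beta family ligands, had 227, 223 and 231 in MI against 58.1, 96.4 and 119 in MI + MSC. The 3 MI libraries differed by less than 10 normalized counts for Eng, which is near the weight of 1 read in MI 13 (8.40), where Eng had 27 reads. Its log2 fold change was -1.36 (SE 0.30) (DESeq2 adjusted p = 0.0193).

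Clec14a and Mmrn2 encode a C-type lectin of endothelial cells and the matrix glycoprotein that it binds. Clec14a had 126, 119 and 127 normalized counts in MI against 21.6, 34.4 and 50.8 in MI + MSC, a log2 fold change of -1.82 (SE 0.41) with a DESeq2 adjusted p of 0.00991. Its partner Mmrn2 had group means of 165 ± 43.6 and 62.9 ± 22 (SD, n = 3) and did not pass in DESeq2 (adjusted p = 0.0658). Both lectin and ligand had groups apart. Tspan7, a tetraspanin, had 159.7, 88.4 and 96.8 in MI against 17.6, 36.7 and 36.6 in MI + MSC (DESeq2 adjusted p = 0.0122). Its MI 13 value, above the other MI libraries, rests on 19 reads. Cyyr1 had 151, 176 and 178 in MI against 33.8, 45.9 and 69.8 in MI + MSC, a log2 fold change of -1.77 (SE 0.38) (DESeq2 adjusted p = 0.00406). Emcn, the sialomucin endomucin, had means of 53.2 ± 3.52 and 22.1 ± 7.22 and was not called (DESeq2 adjusted p = 0.203). Plvap, the protein of the diaphragms that close fenestrae and caveolae, was low, with 16.8, 21.1 and 20.1 in MI against 13.5, 13.8 and 16.3 in MI + MSC. Its log2 fold change of -0.37 (SE 0.77) was smaller than its error.

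The group of receptors and phosphatase of vessel growth held 9 genes. All 9 were lower at an unadjusted p under 0.05 with groups apart, and DESeq2 called 4 of them. Ptprb, the phosphatase that acts on Tek and on VE-cadherin, had 496, 421 and 540.4 normalized counts in MI against 94, 191 and 194 in MI + MSC, a log2 fold change of -1.66 (SE 0.38) with a DESeq2 adjusted p of 0.0027. The angiopoietin receptor Tek and its relative Tie1 had log2 fold changes of -1.84 and -1.52 and were not called by DESeq2 (adjusted p = 0.0937 and 0.114). The adhesion G protein-coupled receptors Adgrf5 and Adgrl4 were both called: Adgrf5 had 429, 640.2 and 576 in MI against 86.5, 168 and 213 in MI + MSC (DESeq2 adjusted p = 0.00111). Adgrl4 had 101, 161 and 143 in MI against 36.5, 43.6 and 53.6 in MI + MSC (DESeq2 adjusted p = 0.00589). Robo4, a guidance receptor that steadies the endothelial barrier, had 75.6, 102 and 90.6 in MI against 19.6, 23 and 33.2 in MI + MSC (DESeq2 adjusted p = 0.00906). In each of these 3 receptors the highest MI + MSC library lay below the lowest MI library. The Notch pair, the receptor Notch4 and the ligand Dll4, had the same log2 fold change, -1.32 and -1.32, and Ramp2, the partner of the adrenomedullin receptor, had -1.45; none of the 3 was called by DESeq2.

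Of the 6 transcription factors, 5 were tested, all 5 with groups apart. The SOXF factors Sox7, Sox17 and Sox18, which specify endothelial and arterial fate, had log2 fold changes of -1.89, -1.71 and -1.78. Sox18, the member of the 3 that DESeq2 called, had 58.8, 57.7 and 70.0 normalized counts in MI against 10.1, 25.3 and 17.6 in MI + MSC (adjusted p = 0.0314). Meox2, which with Tcf15 drives fatty acid transport in heart capillaries, had means of 51.6 ± 20.9 and 13.7 ± 7.41 (SD, n = 3) and a log2 fold change of -1.84. Its partner Tcf15 had 53 cardiac reads in all, too few to compare. Erg, the ETS factor that sustains endothelial identity, was closest to 0 of the 5, with 75.6, 44.2 and 47.4 in MI against 21.6, 43.6 and 31.2 in MI + MSC. The Erg groups were separated by a narrow gap, and its log2 fold change of -0.77 (SE 0.46) did not pass in limma (adjusted p = 0.660) or DESeq2 (adjusted p = 0.769).

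ETS factors such as ERG bind sites with a GGAA core, and the windows just upstream of the genes were read for their letters, since these genes were lower together and ETS and SOX factors are among them. In the 250 bases before the start of the Ensembl canonical transcript (GRCm39), CAGGAAG stood on either strand in 13 of the 42 genes (31.0%), against 1770 of 17888 protein-coding genes of the table (9.89%). The related letters CCGGAAG stood in 0 of the 42, against 7.60% of coding genes. AACAAT, the core for SOX factors, stood on either strand in 8 (19%) against 8.28%, and AGATAA, the core for GATA factors, in 3 (7.14%) against 8.77%. A match describes the letters and not a bound site. The 4 windows printed here are those of the 13 that overlap no annotated exon of any gene, although those of Sox18 and Vwf overlap an intron of another or a longer transcript. They are written 5′ to 3′ on the strand of the gene, with CAGGAAG or its reverse complement CTTCCTG in capitals.
Sox18: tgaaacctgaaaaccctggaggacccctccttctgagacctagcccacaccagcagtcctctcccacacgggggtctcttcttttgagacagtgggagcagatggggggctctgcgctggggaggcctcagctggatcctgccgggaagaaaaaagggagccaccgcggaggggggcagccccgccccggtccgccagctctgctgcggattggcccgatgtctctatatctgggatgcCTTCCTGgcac
Notch4: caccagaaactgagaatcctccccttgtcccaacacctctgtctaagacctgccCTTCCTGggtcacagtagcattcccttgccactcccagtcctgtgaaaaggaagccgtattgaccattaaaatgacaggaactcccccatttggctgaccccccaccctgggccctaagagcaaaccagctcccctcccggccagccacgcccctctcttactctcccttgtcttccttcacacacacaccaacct
Emcn: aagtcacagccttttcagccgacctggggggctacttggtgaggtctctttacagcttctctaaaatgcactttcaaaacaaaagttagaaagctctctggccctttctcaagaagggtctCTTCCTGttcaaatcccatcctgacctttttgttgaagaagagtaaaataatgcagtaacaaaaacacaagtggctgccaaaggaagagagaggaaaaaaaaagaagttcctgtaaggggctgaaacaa
Vwf: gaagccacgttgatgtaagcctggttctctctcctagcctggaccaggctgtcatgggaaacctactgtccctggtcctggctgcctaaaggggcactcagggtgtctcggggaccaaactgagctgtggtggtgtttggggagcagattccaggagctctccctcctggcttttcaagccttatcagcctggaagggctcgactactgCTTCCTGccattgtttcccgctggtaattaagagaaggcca
The Sox18 window is chr2:181313439-181313688 on the minus strand, overlapping the gene Gm74574 of the other strand, with the capitals beginning 11 bases before the start. That of Notch4 is chr17:34782970-34783219 on the plus strand, with the match at 196 bases. That of Emcn is chr3:137046544-137046793 on the plus strand, with the match at 129 bases. That of Vwf is chr6:125529661-125529910 on the plus strand, within an intron of longer Vwf transcripts, with the match at 41 bases. Sox18, Notch4 and Emcn were among the genes lower at an unadjusted p under 0.05 in limma. Vwf, whose window holds the same letters, was not (limma unadjusted p = 0.477). None of these 4 passed in limma after adjustment (adjusted p = 0.517, 0.517, 0.587 and 0.811, in that order).

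Genes for capillary transport of lipid and water were lower in 4 of 6 cases at an unadjusted p under 0.05, and DESeq2 called Fabp4 and Gpihbp1. Fabp4 had 563, 554 and 596 normalized counts in MI against 184, 280.1 and 283 in MI + MSC, a log2 fold change of -1.22 (SE 0.25) with a DESeq2 adjusted p of 0.00478. Gpihbp1, which carries lipoprotein lipase to the capillary lumen, had 58.8, 97.1 and 140.0 in MI against 28.4, 43.6 and 34.6 in MI + MSC (DESeq2 adjusted p = 0.0408). Cav1 had 815, 755 and 958 in MI against 186, 344 and 327 in MI + MSC, with groups apart by 2.95-fold in their means (DESeq2 adjusted p = 0.057). All 3 genes were more than 2-fold lower in the mean, and in none of them did the groups overlap. Aqp1, a water channel of capillaries and red cells, had 277, 291 and 333 in MI against 62.9, 80.4 and 94.2 in MI + MSC, a log2 fold change of -1.91 (SE 0.80) with the largest error of the 39. DESeq2 did not call Aqp1 over all libraries (adjusted p = 0.203) and called it on the 6 cardiac libraries alone (adjusted p = 2.8e-05). Cd36, the fatty acid receptor of capillaries, macrophages and platelets, overlapped between groups, with 647, 898 and 838 in MI against 549.5, 289 and 658 in MI + MSC. Nos3, endothelial nitric oxide synthase, had 58.8, 43.3 and 53.5 in MI against 12.8, 39 and 29.2 in MI + MSC, groups apart and an unadjusted p of 0.0723.

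Of the remaining genes, Egfl7 and Mcf2l were called by DESeq2 and Vwf and Rasip1 were not. Egfl7, a protein that endothelial cells secrete into the vessel wall, had 319, 182 and 230.1 normalized counts in MI against 46.6, 41.3 and 90.2 in MI + MSC, a log2 fold change of -2.05 (SE 0.39) with a DESeq2 adjusted p of 0.00183. Mcf2l, a guanine nucleotide exchange factor, had 168, 146 and 138 in MI against 25, 43.6 and 50.8 in MI + MSC. It had the lowest unadjusted p of the 39 (6.8e-05), a log2 fold change of -1.92 (SE 0.32) and a DESeq2 adjusted p of 8.3e-04. Vwf, which tethers platelets, had 75.6, 81.7 and 46.3 in MI against 30.4, 64.3 and 44.1 in MI + MSC, and the groups overlapped. Rasip1, an effector that Rap1 and Ras use in vessel lumen formation, had 75.6, 85.5 and 84.4 in MI against 53.4, 73.5 and 44.7 in MI + MSC, a narrow separation with a log2 fold change of -0.53 (SE 0.35).

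Of the leukocyte adhesion molecules, Vcam1 overlapped between the cardiac groups and Icam2 did not. Vcam1, which cytokines induce on endothelium and which fibroblasts and macrophages can also carry, had 58.8, 48.1 and 83.4 normalized counts in MI against 60.2, 50.5 and 58.3 in MI + MSC. The MI + MSC values lay inside the range of the MI values, and its log2 fold change of -0.13 (SE 0.48) turned to 0.08 without MI 20. Icam2, a constitutive ligand for leukocyte integrins, had 58.8, 58.6 and 81.3 in MI against 26.4, 34.4 and 46.1 in MI + MSC, with groups apart and a log2 fold change of -0.88 (SE 0.39) (DESeq2 adjusted p = 0.595). Sele had 8.40, 6.73 and 5.15 in MI against 4.06, 9.18 and 5.42 in MI + MSC, 36 reads over the 6 libraries, too few to compare.

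Dividing each gene by Cdh5 in the same library describes which genes moved apart from VE-cadherin. Of the other 41 genes, 30 had ratios that overlapped between MI and MI + MSC. The ratio was higher in every MI + MSC library than in every MI library for 8 genes, 7 of them among the 38 tested. Over all tested genes this held for 75.3%, since Cdh5 itself was lower, so that a higher ratio is nothing particular to these genes. It was lower in every MI + MSC library for 3, against 0.0606% of all tested genes, or 7 of 11548. Since Cdh5 was lower, only a gene that was lower still could reach this, so that the low share of all genes is also no result about these genes. For Aqp1 the gap was narrow, with 0.541 in MI 13 against 0.525 in MI + MSC 15. Vcam1 had 0.115, 0.101 and 0.163 of the Cdh5 level without MSC against 0.503, 0.319 and 0.251 after MSC, a 2.83-fold difference in the means. Rasip1 had 0.148, 0.179 and 0.165 against 0.446, 0.464 and 0.192, a 2.24-fold difference. These genes were chosen after their values were seen. None of the 39 tested genes of the 42 had a log2 fold change above 0 in this comparison. For a tested gene, a higher ratio thus stands for a smaller difference than that of Cdh5. Sele, Plvap and Vwf had mean ratios 2.84-, 2.32- and 2.08-fold higher, with few reads, and Icam2, Fabp4 and Eng 1.60-, 1.32- and 1.18-fold higher. Btnl9 was lower by more than Cdh5, from 0.41, 0.513 and 0.472 in MI to 0.266, 0.246 and 0.315 in MI + MSC, and Aqp1 and Clec14a had mean ratios 0.797 and 0.829 times those in MI. The ratios were not tested.

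**Figure D4:**
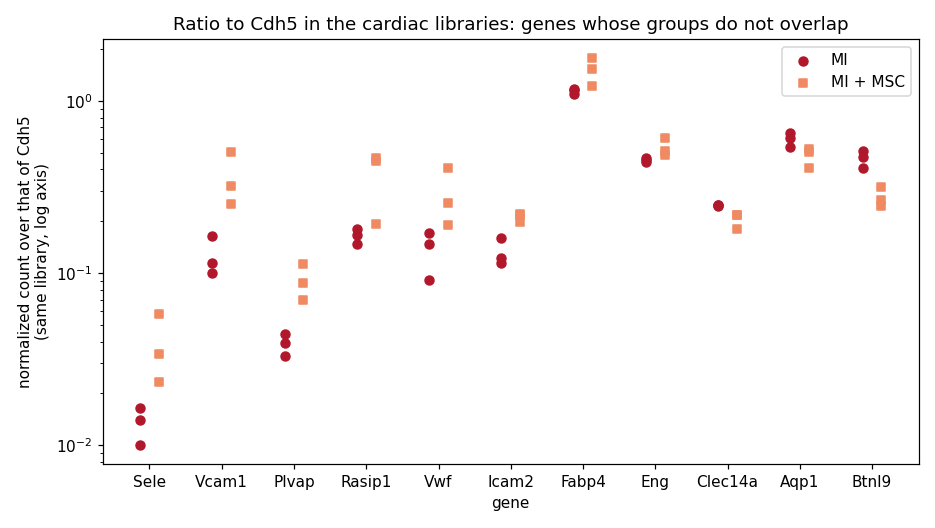
Normalized count of a gene divided by that of Cdh5 in the same cardiac library (log axis), for the 11 of 41 genes whose MI and MI + MSC ratios do not overlap; each point is a library. Sele, Vcam1, Plvap, Rasip1, Vwf, Icam2, Fabp4 and Eng are higher relative to Cdh5 in MI + MSC, and Clec14a, Aqp1 and Btnl9 are lower.

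Endothelial genes outside the 42 were given by lists. Of 32 further pan-endothelial genes, 27 were tested and had a median log2 fold change of -0.91 in MI + MSC against MI; 24 were below 0, 14 were lower at an unadjusted p under 0.05 and DESeq2 called 5 lower. Those 5, named here after their values were seen, were the VEGF receptors Kdr and Flt1, with Tm4sf1, Timp4 and Tinagl1, and their log2 fold changes ran from -2.33 (Timp4) to -1.33 (Tm4sf1). For Timp4, the study's RT-qPCR in cardiac Ly6G+ cells of an expanded cohort showed no significant change. Among those with the most reads, Cd93, which monocytes and neutrophils also carry, had 647 to 1945 normalized counts in MI and 1332 to 2689 in MI + MSC. Fli1, an ETS factor of endothelium and blood cells, had 168 to 304 in MI and 250.2 to 313 in MI + MSC, and both genes overlapped between the groups. Bmpr2, a BMP receptor of many cell types, had 378 to 491 and 270.4 to 321, with groups apart. Of the arterial genes 2 of 5 tested (Gja5 and Efnb2), of the venous genes 2 of 4 (Aplnr and Ephb4) and of the lymphatic genes 2 of 5 (Lyve1 and Flt4) were lower at an unadjusted p under 0.05, and none was higher. Lyve1 overlapped between the cardiac groups, with 16.8 to 107 in MI and 9.46 to 33.2 in MI + MSC. It was higher in blood, at 190 to 336. Mmrn1 of the lymphatic list reached 2854 in Blood 21 and Bmx of the arterial list 457 in Blood 22, so that these lists are not read in endothelium alone. The endocardial list left 1 gene to test, Npr3, at 9.26 to 75.6 in MI and 4.06 to 13.8 in MI + MSC. Genes of arteries, veins and lymphatics thus gave log2 medians of -1.28, -1.12 and -0.93, all less far from 0 than the -1.60 of the 42 genes, without a test of that difference.

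The comparison of heart with blood asks what distinguishes Ly6G+ cells of the infarct from circulating ones. In MI against Blood, limma called 33 of the 39 genes higher (21.2% of all genes) and 0 lower (13.5%), with a median log2 fold change of 4.60. The 39 passed the minimum mean largely through their level in the heart, so that these counts are a description. With no reads in either Blood library, 9 of the genes have a lower bound in place of a fold: with each Blood library set at 3 reads they were at least 4.15-fold (Sox7) to 14.6-fold (Cyyr1) higher in MI, and the median over the 39 with these at their bounds was 3.60 on the log2 scale. Another 12 of the 42 had some reads in Blood but at most 3 in a library. Cdh5 had 7.07 and 6.50 normalized counts in Blood 21 and Blood 22, a log2 fold change of 5.84 (SE 0.34) with a limma adjusted p of 3.4e-06. Ptprb had 0 and 2.60, against 421 or more in every MI library. Egfl7 had 0 and 0.65 and Cyyr1 had 0 and 0, and both were thus at or near 0 in blood. Cldn5 and Tcf15 had 0 reads in all 4 blood libraries, which allows up to 21.2 normalized counts in Blood 21 and 1.95 or fewer in the others.

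Of the 29 tested genes outside the blood and fat group 28 were called higher in MI, and of the 10 genes shared with blood cells or fat 5 were. The 6 not called were Plvap, Cd36, Pecam1, Esam, Vwf and Icam2. Cd36 had 459 and 459 normalized counts in Blood, below every MI library, but its log2 fold change of 0.78 (SE 0.38) did not pass in limma (adjusted p = 0.130). Pecam1, Esam, Plvap and Vwf overlapped, each with Blood 21 within or above the range of the MI libraries. Vwf was the gene with a fold change below 0 in limma (-1.77 (SE 0.84)), with 911 and 57.2 in Blood. Vwf was called lower in MI by edgeR (adjusted p = 0.0147) and by DESeq2 over all libraries (adjusted p = 0.00165), and without Blood 21 its log2 fold change was 0.20. Icam2 missed the threshold narrowly (limma adjusted p = 0.0572). Jam2 had 49.5 and 27.9 in Blood and was called higher in MI (2.36 (SE 0.41), limma adjusted p = 0.00197). Other lists moved between the same libraries. In limma, 12 of 12 striated muscle genes (median log2 fold change 7.16) and 7 of 9 mural genes (median 4.51) were called higher in MI. It called 12 of 14 neutrophil genes (median -3.18) and 9 of 11 platelet genes (median -4.32) lower. The platelet difference rested largely on Blood 21, with 16272 RPM there, 650 in Blood 22 and 431 to 495 in MI. The part of these lists in the result was not tested.

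In MI + MSC against Blood + MSC, where the blood libraries were the deepest of the series, limma called 31 of 39 higher (8.23% of all genes) and 0 lower (5.85%), with a median log2 fold change of 3.04, again a description for genes that passed the minimum mean through the heart. Without Blood + MSC 23 the count was 18, where 1.97% of all genes were called higher. In that comparison Cldn5, Tcf15 and Sox17 had no reads in either blood library. With each blood library set at 3 reads, their heart means were 8.23-, 10.5- and 24.8-fold higher. The heart means of Cldn5 and Tcf15 are uncertain too, with 5, 4 and 5 reads and 3, 3 and 17 reads in the MI + MSC libraries. Striated muscle genes were called higher in 12 of 12 cases (median 5.59) and mural genes in 6 of 9 (median 3.18). Neutrophil genes were called lower in 4 of 14 cases (median -2.06) and erythroid genes in 6 of 7 (median -4.78). The part of these lists in the result was not tested. Cdh5 had 4.73 and 2.19 normalized counts in Blood + MSC and a log2 fold change of 4.97 (SE 0.34) (limma adjusted p = 3.7e-05). Ptprb had 1.84 and 1.35 (5.42 (SE 0.43), limma adjusted p = 6.0e-05) and Fabp4 had 7.09 and 6.39 (4.82 (SE 0.28), limma adjusted p = 1.7e-05). For these 3 genes every heart library lay far above both blood libraries. Icam2, with 38.4 and 105 in Blood + MSC, was the gene below 0 (-0.84 (SE 0.44)), and Jam2, with 24.7 and 66.3, overlapped.

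In Blood + MSC against Blood most of the 39 genes had few reads: 20 had at most 3 in each Blood library and 10 at most 3 in each of the 4 blood libraries, having passed the minimum mean through the heart. Their direction in blood is therefore not read here. limma called none, with a lowest adjusted p of 0.672 over all genes (0% of genes called). At an unadjusted p under 0.05 limma had 4 higher (Vcam1, Eng, Icam2 and Btnl9; 4.35% of genes) and 5 lower (Vwf, Pecam1, Esam, Fabp4 and Mcf2l; 3%). edgeR, which also called none, had 3 higher, the same without Btnl9 (2.93% of genes), and 7 lower (4.49%). DESeq2 over all libraries called 4 lower, Vwf, Pecam1, Esam and Aqp1 (1.52% of genes), and DESeq2 on the 4 blood libraries alone called Pecam1 (0.329%). Without Blood 22, limma called Vcam1 and Btnl9 higher (9.64% of genes) and 7 genes lower (3.4%), with Blood 21 then standing alone for its group and assumed to vary like the others. Vcam1 and Btnl9 had 0 reads in Blood 21, which allows up to 21.2 normalized counts, more than either had in a Blood + MSC library.

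The 4 genes called by DESeq2 rested on Blood 21. Vwf had 911 and 57.2 normalized counts in Blood 21 and Blood 22 against 43.6 and 27.6 in Blood + MSC, a log2 fold change of -2.66 (SE 0.93) in limma. Pecam1 had 586 and 50.7 in Blood but 23.4 and 34.7 in Blood + MSC (-2.53 (SE 0.80)), and Esam had 127 and 5.85 in Blood but 4.20 and 4.88 in Blood + MSC (-2.29 (SE 0.93)). In each, Blood 22 lay close to the libraries with MSC and Blood 21 lay more than 10-fold above it. Aqp1 had 169.6 and 5.85 in Blood but 9.19 and 11.9 in Blood + MSC, and its log2 fold change of -1.55 became 0.67 without Blood 21. Without Blood 21 the log2 fold changes of Vwf, Pecam1 and Esam were -0.69, -0.79 and -0.26. Platelet genes moved in the same library: the 11 genes of the list took 16272 RPM in Blood 21 but 650 in Blood 22, 454 in Blood + MSC 23 and 446 in Blood + MSC 24, none of them was at 0 in a blood library, and the platelet integrin gene Itga2b had 1420 normalized counts in Blood 21 against 54.2 to 150.7 in the others. Erythroid genes were lowest there, with 257 RPM in Blood 21, 4975 in Blood 22, 1573 in Blood + MSC 23 and 3916 in Blood + MSC 24. Neutrophil genes took 27010.3 and 31837 RPM in the Blood libraries, above the 18233 and 14394 of those with MSC. Their part in the result was not tested.

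**Figure D5:**
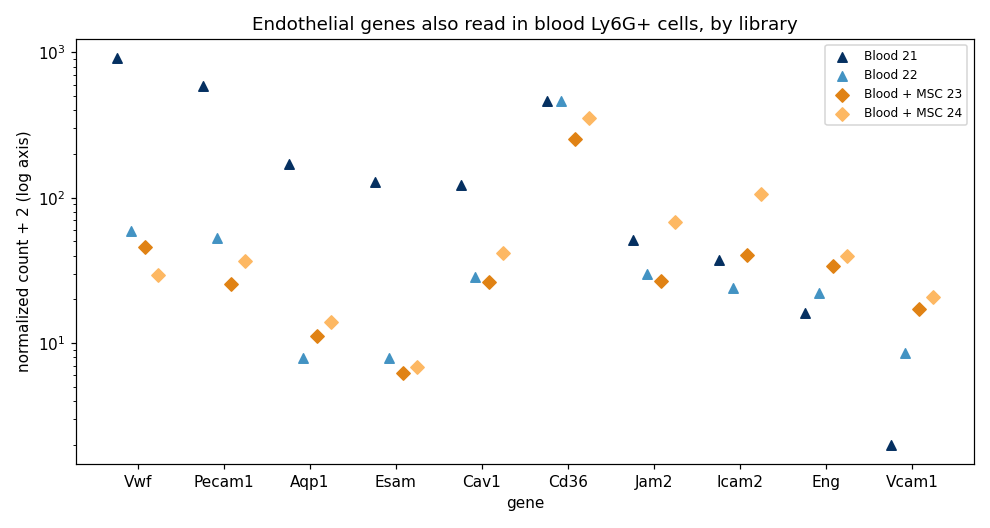
Normalized count + 2 (log axis) of 10 endothelial genes in each of the 4 blood libraries. Blood 21 lies above the other 3 for Vwf, Pecam1, Aqp1, Esam and Cav1, while Eng is higher in both Blood + MSC libraries than in both Blood libraries.

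Some genes pointed the other way in blood, again without passing the adjusted threshold. Vcam1 had 0 and 6.50 normalized counts in Blood but 15.2 and 18.7 in Blood + MSC, a log2 fold change of 2.20 (SE 0.59) (limma adjusted p = 0.672). Eng had 14.1 and 20.1 in Blood but 31.8 and 37.9 in Blood + MSC (0.96 (SE 0.36)). Icam2 had 35.3 and 22.1 in Blood but 38.4 and 105 in Blood + MSC (1.13 (SE 0.48)). With each library left out, the log2 fold changes ran from 1.15 to 3.24 (Vcam1), 0.73 to 1.19 (Eng) and 0.43 to 1.83 (Icam2). The groups were apart for Eng and Icam2, although their values in Blood 21 rest on 2 and 5 reads. For Vcam1, a difference from Blood 21 was not detectable at that depth. The depth differed as well, since 1 read in Blood 21 was worth 7.07 normalized counts and the Blood + MSC libraries held 6339922 and 8602711 reads.

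The difference between the MSC effect in heart and in blood was tested as an interaction. No endothelial gene passed in limma (lowest adjusted p = 0.630, 0% of genes called) and none in edgeR, while for 17 the log2 fold change with MSC was lower in the heart than in blood at an unadjusted p under 0.05 in limma (4.9% of all genes) and for 7 in edgeR (3.99%). In the other direction limma had 0 (2.36%) and edgeR had 1, Vwf (3.07%). Of the 17 in limma, 10 had at most 3 reads in each Blood library and 4 at most 3 in each of the 4 blood libraries, so that their difference largely restates that in the heart. Eng had the lowest unadjusted p, 4.1e-04, with a difference of -2.31 (SE 0.47), and Btnl9 the largest difference, -3.60 (SE 0.76). Eng and Icam2 were lower in all MI + MSC than in all MI libraries and higher in both Blood + MSC than in both Blood libraries, with 2 and 5 reads in Blood 21. Btnl9 had 0 reads there. Without Blood 22, limma called 11 genes in the interaction, with Vwf, Aqp1, Plvap, Esam and Pecam1 higher (2.16% of all genes) and 6 lower (7.33%).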

How the data were processed

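RNA of Ly6G+ cells was sequenced after ribosomal RNA depletion as stranded paired-end libraries, 3 of MI, 3 of MI + MSC, 2 of Blood and 2 of Blood + MSC. Per the labels and the study's methods, the authors trimmed reads with Trimmomatic, removed duplicates with Picard, aligned to GRCm39 with STAR, counted genes with featureCounts, removed mitochondrial reads and scaled with DESeq2. Both deposited tables hold the same 281850 values, a signal that the authors made by dividing gene counts by DESeq2 size factors. Dividing each column by its smallest value above 0 gave whole reads for 100% of values (tolerance 0.01). Interval bounds and floors of 3 reads cover counting error only.

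The main test was limma 3.58.1 (R 4.3.3) on log2(normalized count + 2) with the prior variance following the mean level, 1 mean per group over all 10 libraries. It ran on 11549 genes, those that averaged 10 or more normalized counts, and a gene was called where its Benjamini-Hochberg adjusted p was under 0.05 and its log2 fold change 0.5 or more from 0 (for the interaction, the adjusted p alone). A fold change on this scale understates the change of low genes. edgeR 4.0.16 and DESeq2 1.42.0 were run on the recovered reads as alternatives. limma, edgeR, DESeq2 and limma-voom, but not the array quality weights, were also run on simulated data with changes in MI + MSC alone. The outcome is not given here, and no result rests on it. The study gives 3 mice per group for the sequencing, whereas the blood groups hold 2 libraries each here and the labels tie no library to a separate animal, so that p-values measure the spread between libraries. Gene names and exon lengths came from GENCODE (27906 of 28185 identifiers matched), and upstream windows from GRCm39. The 42 genes and all lists were chosen with earlier results of these data known. Of the lists, Gp1bb, Ahsp, Adipoq, Cidec, Ackr1 and Cytl1 were not analysed here.

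Values in every library were given for the junction genes, the 3 genes with the most reads per kilobase in the heart, the 3 largest differences in each comparison of groups, genes called in either MSC comparison by limma, edgeR or DESeq2 over all libraries, Podxl, Aqp1 and Mcf2l (named by the study) and the highest gene in blood. The others were given by role, except that Plvap, Erg, Nos3, Rasip1, Vcam1, Icam2 and Sele, chosen after their values were seen, were also given by library.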

Additional observations from a re-analysis of the deposited data

How the results depend on the processing

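Alternatives were pseudocounts of 1 and 5, a minimum mean of 20 or none, scaling by total reads or TMM, edgeR, DESeq2 over all or the compared libraries, limma-voom and array quality weights, and leaving out each library. In MI + MSC against MI, limma called 0 endothelial genes, DESeq2 17 over all libraries and 25 on the cardiac ones, limma-voom 29 and array weights 33, all lower. Leaving out each library gave 0. In Blood + MSC against Blood, 0 became 4 with DESeq2 over all libraries and 1 on the blood ones, and 0 to 9 when each library was left out, 9 without Blood 22. The interaction went from 0 to between 0 and 11, with 11 without Blood 22. MI against Blood gave 30 to 37 calls beside 33, where 8.1% to 32.7% of all genes were called higher. MI + MSC against Blood + MSC gave 18 to 35 beside 31 when each library was left out, 18 without Blood + MSC 23 (1.97% of all genes). Aqp1 in blood turned from -1.55 to 0.67 without Blood 21, alone or together with MI 13, and ranged from -3.78 (without Blood 22) to 0.67 when each library was left out. The log2 ratio of read shares rose from 2.79 to 5.52 (MI over Blood) and from 2.29 to 3.78 (MI + MSC over Blood + MSC) without the 10 genes shared with blood cells or fat. Scaling by total reads moved the median of all genes from 0.11 to 0.39 in Blood + MSC against Blood and from 0.15 to 0.65 in MI against Blood. Relative to it, the endothelial median in the heart stayed at -1.58 to -1.59. Where no value above shows it, the cause was not tested. No paired analysis was possible because the groups share no replicate number. Depth limits MI 13 and Blood 21 most, where 3 reads come to 25.2 and 21.2 normalized counts.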
